A study of Mus musculus with 4 samples.

Results

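Early response genes are switched on within minutes of growth factor or serum signalling, without new protein synthesis, and most of their messages decay quickly. The 10 genes described here lie outside the AP-1 (Fos and Jun) family: Egr1, Egr2, Myc, Klf4, Klf10, Ier2, Ier3, Gadd45b, Zfp36 and Dusp1. Several encode transcription factors. Others encode brakes on the same response, such as the phosphatase Dusp1 and the RNA-binding protein Zfp36. In fibroblasts, kinase cascades reach many of these genes through serum response factor bound to CArG boxes and through ETS and CREB factors. Myc protein pairs with Max on the sequence CACGTG to promote growth and ribosome synthesis.

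The genes were taken by symbol from an Affymetrix expression array, using every probe set that the platform annotation assigned to 1 gene symbol. They had 14 probe sets, of 12422 tested, and made up 10 of 8251 named genes. Egr1, Klf4, Klf10 and Gadd45b had 2 probe sets each, and the other 6 genes had 1. Each gene is described by its brightest probe set, with the second given beside it.

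RNA came from cultured mouse embryonic fibroblasts of a mixed FVB;129Sv background, in all of which Men1 is knocked out. On 2 arrays the knockout cells had been complemented with Men1, and on 2 arrays with vector. Men1 encodes menin, a nuclear scaffold protein, and the study looked for genes downstream of it. Both groups grew in 10% serum and were harvested with trypsin 24 h after seeding at 70% density. The labels mention neither serum withdrawal nor fresh serum, so the values are levels in growing cells. They also do not say whether the cells were clones, what drove the introduced Men1, or whether the arrays of a group came from separate cultures. The p-values therefore reflect only how much these 4 arrays vary, and that variation may be technical.

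Median signals of the arrays lay between 50 and 62.4. A probe set is called at control level where it did not exceed the brightest of 19 control probe sets with no spiked RNA, at 25.9 and 27.4 on the Men1 arrays and 15.9 and 20 on the vector arrays. Of 12 fibroblast markers, 8 exceeded the controls on all 4 arrays, and Thy1 and Fap were at control level on all of them. With Men1, 6 of the 12 were higher and 6 lower, and the groups did not overlap for Sparc and S100a4, both lower. The summed signals of the 12 were 10130 to 11330 with Men1 and 10050 to 12150 with vector. Most of each sum came from Col1a1, so it says little about the others. Markers higher and lower with Men1 numbered 1 and 4 for epithelium, 2 and 3 for endothelium, 4 and 3 for blood cells. For neural cells they numbered 3 and 2. The 5 skeletal muscle markers were all lower with Men1, with summed signals of 272.4 and 241.1 against 366.9 and 354.9 with vector. The groups did not overlap for Myog and Tnni1, but overlapped for Myod1, Des and Acta1. The part of the muscle difference in the results below was not tested. For Men1 itself the probe set gave 18.8 and 22.5 in the complemented cells, against 18.1 and 29.5 in cells with vector. It was thus at control level on both Men1 arrays and above the controls on both vector arrays, and the groups overlapped (-0.11, SE 0.22). The labels would give the opposite order. It is not known whether the probe set can see the deleted or the introduced sequence. It therefore cannot check the labels, and groups are named as labelled. In RNA from whole cultures, fewer cells of a type and less RNA per cell cannot be told apart.

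With Men1, 7 of the 10 genes read higher on average and 3 lower, and no difference passed the test. Myc, Ier3, Klf10 and Ier2 had the largest positive differences, at 0.26 to 0.64 on the log2(signal + 16) scale. Gadd45b and Klf4 were lower, at -0.49 and -0.43. The limma adjusted p was 1 for each of the 14 probe sets, 0 had an unadjusted p under 0.05, and the lowest unadjusted p was 0.0539. Among all 12422 probe sets 0% passed at an adjusted p under 0.05, and 1.88% had an unadjusted p under 0.05.

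The median difference of the 10 genes was 0.14, beside -0.01 over all named genes, of which 47.0% read higher. Between the arrays numbered 1 the median of the 10 genes was 0.24, with 8 higher, and between those numbered 2 it was -0.01, with 5 higher. It was 0.08 without vector replicate 1 and 0.28 without vector replicate 2. The median difference of the 10 genes in size, regardless of sign, was 0.29, beside 0.13 over all named genes. These sets are unlike, since 9 of the 10 genes exceeded the controls on all arrays, against 5466 of 8251 named genes. The added 16 shrinks the differences of dim probe sets. The groups did not overlap for 8 of the 14 probe sets, 4 higher and 4 lower. Among all probe sets 22.1% did not overlap, 10.4% higher and 11.7% lower. Of the 8 probe sets, 4 belong to Klf10 and Gadd45b, which count double here, and 1 is a Klf4 probe set at control level.

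**Figure D1:**
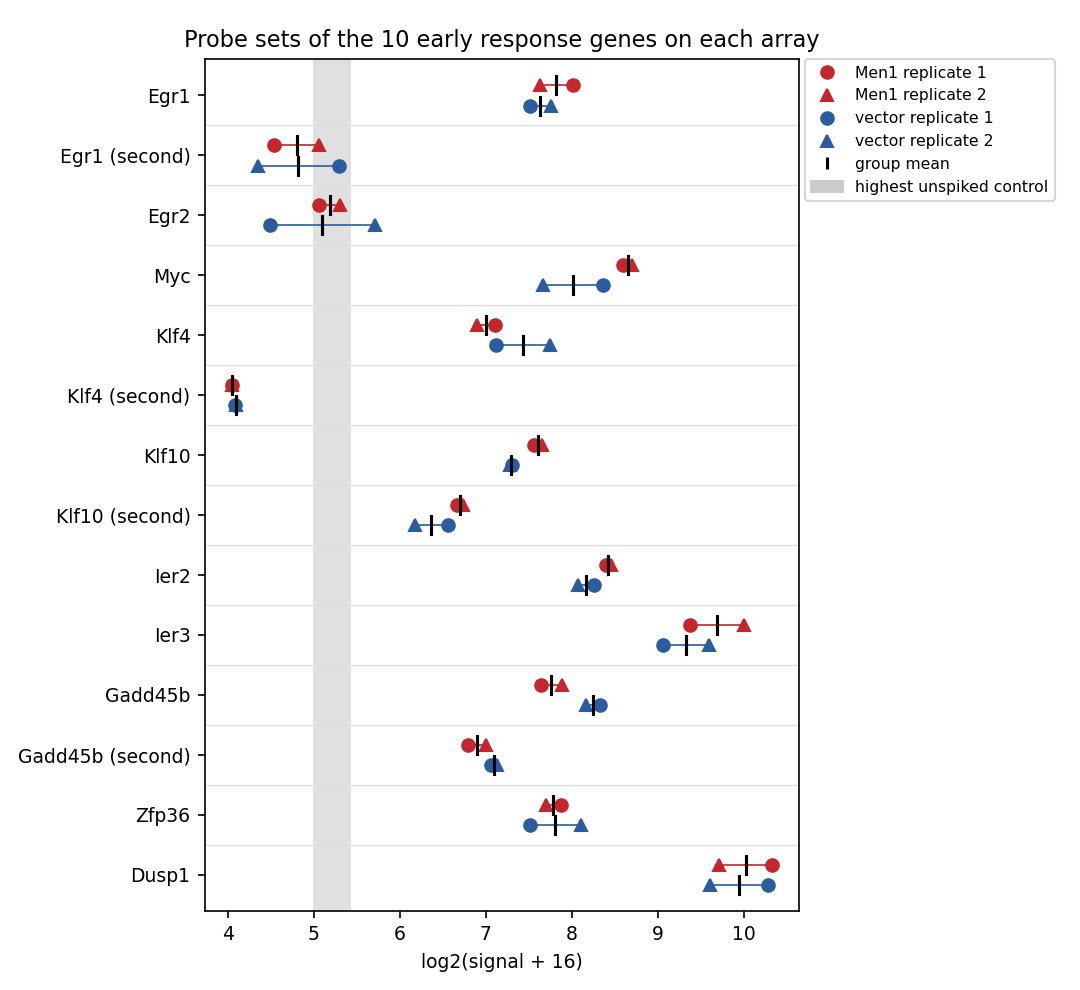
Each point is the log2(signal + 16) of 1 probe set (rows) on 1 array, with Men1 above vector in each row, circles for replicate 1, triangles for replicate 2 and black ticks for group means (n = 2). The grey band spans the brightest unspiked control of the arrays. The second Egr1 probe set and that of Egr2 lie in or near the band, and the second Klf4 probe set lies below it at 4.05 to 4.10. The other 11 exceeded the controls on all 4 arrays.

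Promoter sequence in the RefSeq table (GRCm38.p6) was matched for 6 of the 10 genes, namely Egr2, Klf4, Ier3, Gadd45b, Zfp36 and Dusp1. Egr1, Myc, Klf10 and Ier2 were not matched. The 250 bases before each listed start were searched for 4 motifs known from early response genes. These were the CArG box bound by serum response factor, the ETS core CCGGAA, the cAMP response element TGACGTCA, and the Myc and Max site CACGTG, each on both strands. The promoters below are those of the lower pair, Gadd45b and Klf4, and of the feedback pair, Zfp36 and Dusp1. They are printed 5′ to 3′ on the strand of the gene, with the motif matches in capitals.
Gadd45b, chr10:80929841-80930090, plus strand: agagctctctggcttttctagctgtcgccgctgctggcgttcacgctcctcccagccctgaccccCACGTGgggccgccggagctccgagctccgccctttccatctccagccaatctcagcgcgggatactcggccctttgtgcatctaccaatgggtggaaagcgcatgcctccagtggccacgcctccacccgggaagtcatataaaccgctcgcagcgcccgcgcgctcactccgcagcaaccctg
Klf4, chr4:55532476-55532725, minus strand: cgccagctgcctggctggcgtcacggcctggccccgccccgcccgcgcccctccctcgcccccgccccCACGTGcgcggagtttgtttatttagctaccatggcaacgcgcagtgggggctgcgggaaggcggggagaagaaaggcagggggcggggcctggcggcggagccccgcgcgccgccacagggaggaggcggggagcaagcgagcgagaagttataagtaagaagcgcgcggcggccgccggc
Zfp36, chr7:28379229-28379478, minus strand: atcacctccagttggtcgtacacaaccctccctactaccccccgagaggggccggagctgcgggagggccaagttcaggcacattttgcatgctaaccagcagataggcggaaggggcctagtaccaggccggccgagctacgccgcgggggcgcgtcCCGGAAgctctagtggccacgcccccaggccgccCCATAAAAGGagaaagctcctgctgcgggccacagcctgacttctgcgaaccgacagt
Dusp1, chr17:26508473-26508722, minus strand: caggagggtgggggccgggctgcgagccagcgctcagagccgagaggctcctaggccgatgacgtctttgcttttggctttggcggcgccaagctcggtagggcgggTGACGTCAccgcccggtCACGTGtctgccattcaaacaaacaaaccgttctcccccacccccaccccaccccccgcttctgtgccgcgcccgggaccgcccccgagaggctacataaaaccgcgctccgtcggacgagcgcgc

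Gadd45b and Klf4 each held 1 CACGTG, beginning 185 and 182 bases before the start. Zfp36 held a CArG box beginning 58 bases before the start and CCGGAA beginning 92 bases before it. Dusp1 held TGACGTCA and CACGTG, beginning 143 and 126 bases before the start. None of these matches overlapped another. CACGTG stood in 4 of the 6 matched genes (Egr2, Klf4, Gadd45b and Dusp1), and 6.86% of all 27025 genes with a window hold it in the same way. The CArG box stood in Egr2 and Zfp36 (1.62% of genes), CCGGAA in the same pair (13.6%), and TGACGTCA in Dusp1 (1.77%). A gene was counted if any of its windows held the motif, and Egr2 has 5 windows. Of all 32851 windows taken singly, 6.02% hold CACGTG, 1.47% the CArG box, 12.0% CCGGAA and 1.55% TGACGTCA. The Ier3 window held none of these letters. A match is a description of the sequence and not a measured binding site.

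Myc, the growth-promoting partner of Max, read higher on both Men1 arrays. Its signals were 369.7 and 401.5 with Men1, against 312 and 186.4 with vector. The Men1 arrays lay close together and above both vector arrays, and vector replicate 2 stood well below vector replicate 1. Means were 386 ± 22.5 with Men1 and 249 ± 88.8 with vector (SD, n = 2 each), a ratio of 1.55. The groups differed by 0.64 on the log2 scale (standard error, SE, 0.28), and the unadjusted limma p was 0.0739 (adjusted p = 1). Its size turned on which vector array was used. Between the arrays numbered 1 the difference was 0.23, and between those numbered 2 it was 1.05. Without vector replicate 2 it was 0.29, and without vector replicate 1 it was 0.99. Each of these fits leaves 1 vector array, so its spread comes from the Men1 arrays alone.

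The pattern most like that of Myc was sought among 6511 probe sets with 1 symbol that exceeded the controls on all arrays. Likeness was the Euclidean distance between the 4 centred log2 values. The nearest were Hspb11, an intraflagellar transport subunit (distance 0.175), Slc6a15, an amino acid transporter (0.207), and Ankrd17, an ankyrin repeat protein (0.208). Hspb11 read 84.6 and 94.2 with Men1, against 58.5 and 33 with vector. With 4 arrays the ranking is only a description.

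Egr1 and Egr2 are zinc finger transcription factors, of which Egr1 is a classic serum target. Egr1 read 242.3 and 181.5 with Men1, against 166.1 and 199.8 with vector. Vector replicate 2 lay between the Men1 arrays, so the groups overlapped, and the log2 difference of 0.19 was within its SE of 0.22. Between the arrays numbered 1 the difference was 0.50, and between those numbered 2 it was -0.13. The second Egr1 probe set read 7.2 and 17.5 with Men1, against 23.3 and 4.4 with vector. Only vector replicate 1 exceeded its control.

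Egr2 read 17.5 and 23.7 with Men1, where both arrays were at control level, against 6.5 and 36.3 with vector. The vector arrays lay on either side of the Men1 arrays, and vector replicate 2 alone exceeded the controls. No fold is given for this gene, whose log2 difference was 0.09 with an SE of 0.43.

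Klf4 and Klf10 are Krüppel-like zinc finger factors. Klf4 is one of the factors used to reprogram fibroblasts to pluripotency, and Klf10 is an early target of TGF-beta. Their differences had opposite signs. Klf4 read 122 and 103 with Men1, against 122.5 and 198.8 with vector. Vector replicate 1 was all but equal to Men1 replicate 1, so the lower mean with Men1 rested on vector replicate 2. The log2 difference was -0.43 (SE 0.27), and it was -0.11 without vector replicate 2. The second Klf4 probe set was at control level on every array, with 0.6 and 0.6 against 1 and 1.1.

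Klf10 read 172.6 and 184.9 with Men1, against 142.8 and 139.4 with vector. Both arrays of each group lay close together, and the gap between the groups exceeded the gap within either. Means were 179 ± 8.70 with Men1 and 141 ± 2.40 with vector (SD, n = 2 each). The log2 difference was 0.31 (SE 0.17). The second probe set, with 85.4 and 90.5 against 78.1 and 56.5, differed by 0.33 (SE 0.21) and also did not overlap. The annotation gives both probe sets the same source sequence, so they are not independent. With no overlap, the direction could not change between arrays of the same number or when an array was left out. Differences of the brightest probe set were 0.25 between the arrays numbered 1 and 0.37 between those numbered 2. For the second probe set they were 0.11 and 0.55. Leaving out single arrays gave 0.26 to 0.36 for the brightest and 0.14 to 0.52 for the second.

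Ier2 and Ier3 were named as immediate early response genes. Ier2 encodes a small nuclear protein, and Ier3 a stress-induced protein that modulates cell death and kinase signalling. Ier2 read 321.1 and 334.7 with Men1, against 289 and 252.8 with vector. Both Men1 arrays were above both vector arrays, with means of 328 ± 9.62 and 271 ± 25.6 (SD, n = 2 each). The log2 difference was 0.26 (SE 0.18), with 0.14 and 0.38 between arrays of the same number.

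Ier3 read 650 and 1009.2 with Men1, against 516.5 and 759 with vector. Vector replicate 2 exceeded Men1 replicate 1, so the groups overlapped. Within each replicate number the Men1 array was the higher, by 0.32 and 0.40. The array numbered 2 was the brighter in both groups, and the gaps within groups (0.62 and 0.54) exceeded the difference between them (0.36, SE 0.31). Leaving out single arrays gave 0.05 to 0.67.

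Gadd45b, a stress sensor that activates the p38 and JNK kinase pathways, read lower with Men1 in both of its probe sets. The brightest read 183.6 and 220.5 with Men1, against 306.3 and 271.7 with vector. Both Men1 arrays were below both vector arrays, with means of 202 ± 26.1 and 289 ± 24.5 (SD, n = 2 each). Its log2 difference of -0.49 (SE 0.19) was the one with the lowest unadjusted p given above. The second read 95 and 112.8 with Men1, against 117.1 and 124.3 with vector, a log2 difference of -0.19 (SE 0.18). Differences between arrays of the same number were -0.69 and -0.28 for the brightest and -0.26 and -0.12 for the second. Leaving out single arrays gave -0.61 to -0.36 for the brightest and -0.30 to -0.09 for the second. The groups did not overlap for either probe set, so the sign could not change in any of these comparisons. The brightest carries the name suffix f, which Affymetrix gives to probe sets that can share sequence with related transcripts, and the second does not.

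Zfp36, or tristetraprolin, binds AU-rich elements and speeds the decay of cytokine and early response messages. It read 218 and 191.2 with Men1, against 166.2 and 260.1 with vector. Both Men1 arrays lay between the vector arrays. With a log2 difference of -0.03 and an SE of 0.26 the groups were close, and the sign differed between the numbers, at 0.36 and -0.41.

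Dusp1 removes phosphate from the MAP kinases ERK, JNK and p38. It read 1274 and 823.6 with Men1, against 1228.5 and 764.2 with vector. The arrays numbered 1 were brighter than those numbered 2 in both groups, by 0.62 with Men1 and 0.67 with vector. Within a number the groups differed by only 0.05 and 0.11. The difference between the groups was 0.08 with an SE of 0.34.

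**Figure D2:**
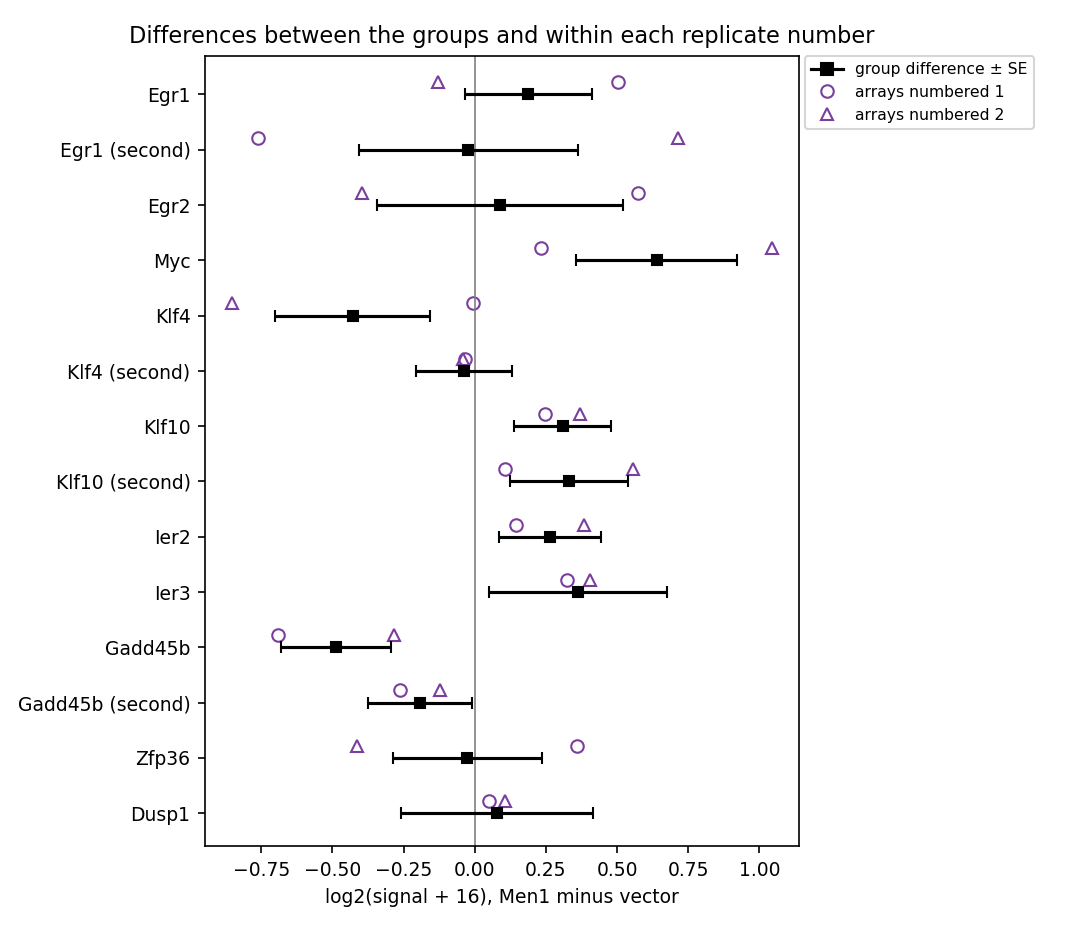
Black squares give the log2(signal + 16) difference, Men1 minus vector, with its limma SE for the 14 probe sets. Open circles and triangles give the same difference between the arrays numbered 1 and numbered 2. The symbols for Myc, both Klf10 probe sets, Ier2, Ier3 and Dusp1 lie right of 0, those for the Klf4 and Gadd45b probe sets lie left of it, and those for Egr1, Egr2 and Zfp36 fall on both sides.

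Taken by array number, 5 genes were higher with Men1 within both numbers (Myc, Klf10, Ier2, Ier3 and Dusp1). Lower within both were 2 genes, Klf4 and Gadd45b, though for Klf4 the arrays numbered 1 differed by only -0.0052. Over all named genes these shares were 19.2% and 23.2%. For Myc, Klf10, Ier2, Klf4 and Gadd45b this follows from groups that did not overlap. The difference exceeded the larger gap within a group for 3 of the 10 genes (Klf10, Ier2 and Gadd45b), beside 13.2% of all named genes. Of the 9 genes that exceeded the controls on all arrays, vector replicate 2 was the highest or lowest array for 6. The same held for 65.0% of the 5466 named genes measured this way.

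The median gap between the replicates of the 10 genes was 0.23 with Men1 and 0.57 with vector. Over the 5466 genes the medians were 0.19 and 0.32. The sets are unlike, since the 5466 exceeded the controls on all arrays and the 10 include Egr2. Egr2 did not, and its gap with vector was 1.22.

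**Figure D3:**
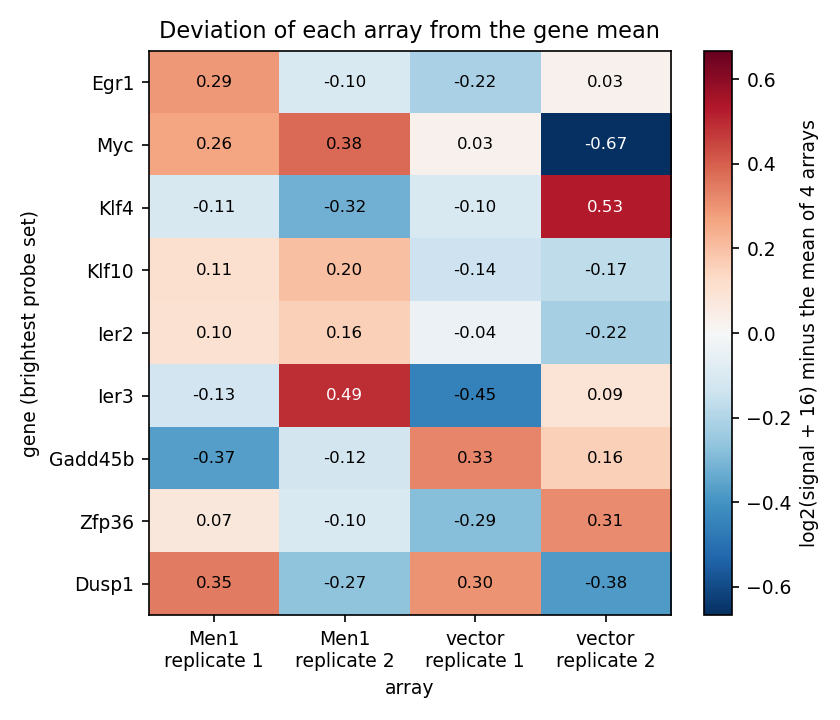
Colours and numbers give log2(signal + 16) minus the mean of the 4 arrays for the 9 genes (rows) that exceeded the controls on all arrays (columns). Vector replicate 2 is at -0.67 for Myc and 0.53 for Klf4, and Dusp1 is positive on both arrays numbered 1 and negative on both numbered 2.

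Other genes of the early response and of the pathways around it were counted in 6 lists, each gene by its brightest probe set. Some genes stand in several lists, so the lists are not independent. By limma, 0 of their genes passed at an adjusted p under 0.05. At an unadjusted p under 0.05, Id2 and Cad were higher and Il6 was lower, where 0.715% of all named genes were higher and 0.970% lower.

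Of 27 measured other early response transcription factors, 20 were higher with Men1 and 7 lower, with a median difference of 0.19. The groups did not overlap for 13 that were higher and 1 that was lower, where 10.1% and 12.0% of all named genes did so. Klf2, among the 13, was at control level on all arrays. The median was 0.16 between the arrays numbered 1 and 0.29 between those numbered 2. Id2, an inhibitor of basic helix-loop-helix factors, read 163.5 and 133.9 with Men1, against 102.5 and 99.2 with vector (0.49, SE 0.19). The acute phase factor Cebpb differed by 0.44, the clock gene Per1 by 0.48 and Snai1, a repressor of epithelial genes, by 0.41. All 3 had both Men1 arrays above both vector arrays.

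Early response genes for signalling and secreted proteins showed no such separation. Of 23 measured, 16 were higher and 7 lower (median 0.11), but only 1 did not overlap in the higher direction and 3 in the lower. Medians were -0.06 between the arrays numbered 1 and 0.26 between those numbered 2. Ptgs2, the inducible cyclooxygenase, read 447.8 and 503.7 with Men1, against 463.4 and 186.3 with vector. Vector replicate 2 alone was low, as it was for Myc. The same array was lowest for Tnfaip3, an NF-kB inhibitor (69.6 and 87.3 against 80.7 and 31.6), and for Phlda1 (1233.3 and 1104.1 against 1283.3 and 674.6). Btg2, an antiproliferative gene, differed by -0.25 (SE 0.20). Il6 was at control level on all arrays and is named after its values were seen.

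Relatives of the 10 genes were divided, with 9 of 19 measured higher, 10 lower and a median of -0.03. Klf2, Klf5, Klf6 and Klf9 are also counted among the transcription factors above. Zfp36l2, a paralog of Zfp36, read 1241.4 and 1175.1 with Men1, against 871.8 and 1006.5 with vector (0.36, SE 0.18). Klf5 differed by 0.40 (SE 0.23). Nab2, which represses Egr proteins, differed by -0.31 (SE 0.22), and the phosphatase Dusp2 by -0.44 (SE 0.33). Of 3 Zfp36l2 probe sets, the other two differed by 0.07 and 0.58.

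Upstream, the kinase cascade and the serum response factors were close to the whole table, with 17 of 29 higher, 12 lower and a median of 0.03. Medians were 0.14 between the arrays numbered 1 and -0.11 between those numbered 2. Among the listed genes above the controls on at least 2 arrays, the ternary complex factor Elk3 had the smallest p. It read 227.1 and 234 with Men1, against 201 and 163.2 with vector (0.32, SE 0.19). Araf, Sos1 and Map2k1, which act around Ras on the route to ERK, differed by 0.30, 0.24 and 0.31 and overlapped between groups.

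The list around Myc mixes its targets with partners and with factors that oppose it. Of 32 measured, 25 were higher and 7 lower, with a median of 0.14. The groups did not overlap for 9 that were higher and 2 that were lower, where 10.1% and 12.0% of all named genes did so. The median was -0.05 between the arrays numbered 1 and 0.27 between those numbered 2, so the lean was not seen in the first pair. Cad, the enzyme of the first steps of pyrimidine synthesis, read 785.4 and 926.3 with Men1, against 569.7 and 603.9 with vector (0.53, SE 0.19). The nucleolar protein Gnl3 differed by 0.29 and hexokinase Hk2 by 0.40. Mxd4, a Max partner that opposes Myc, differed by -0.37 (SE 0.23), with 158 and 156.1 against 172.9 and 248.5. Max itself differed by 0.14 (SE 0.24).

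Messages with AU-rich elements of the kind bound by Zfp36 were 12 higher and 7 lower of 19 measured (median 0.10), and this list holds Myc and Ier3 themselves. Medians were 0.01 between the arrays numbered 1 and -0.02 between those numbered 2. Fos read 56.7 and 74.7 with Men1, against 22.6 and 65.4 with vector (0.53, SE 0.40). Il3 read 23.7 and 17.6 with Men1, where both arrays were at control level, against 25 and 45.7 with vector (-0.46, SE 0.26). Of the 19 genes, 11 exceeded the controls on at least 2 arrays.

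**Figure D4:**
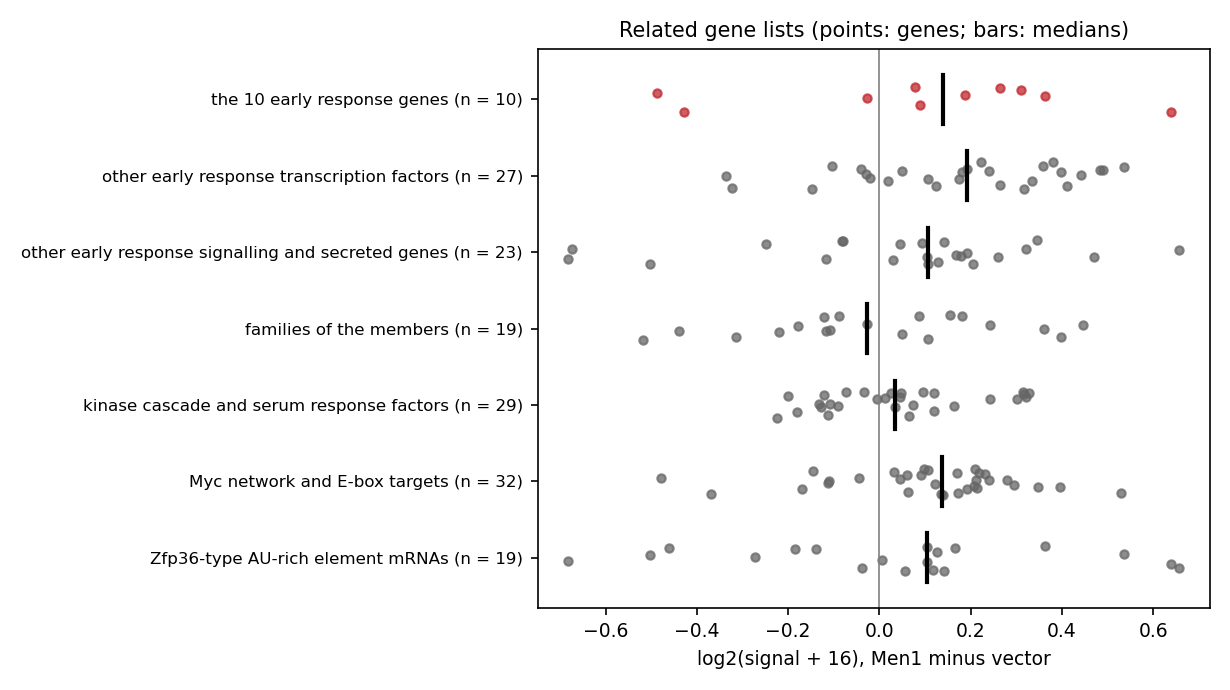
Each point is the log2(signal + 16) difference, Men1 minus vector, of 1 gene by its brightest probe set, and black bars are medians. The 10 genes (top row, red) have a median of 0.14 and the other early response transcription factors 0.19, while the relatives lie at -0.03 and the upstream factors at 0.03.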

How the data were processed

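The deposited table holds 1 linear intensity for each probe set and array. The submitters' processing notes name MAS5 and Affymetrix Expression Console for it, without versions. The 2% trimmed means were 150.08, 150.08, 150.08 and 150.07, so the authors had brought all arrays to 1 level, which cannot show a change in total RNA. Of 12488 probe sets, 66 array controls were left out.

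Signals were analysed as log2(signal + 16), which understates folds of dim probe sets. Differences are Men1 minus vector. All 12422 probe sets were fitted with lmFit and eBayes of limma 3.58.1 under R 4.3.3. Tests were two-sided, and p-values were adjusted by Benjamini and Hochberg, with a threshold of 0.05. The fit had 2 residual and 2.87 prior degrees of freedom, and the number of arrays limits precision. The fit was tested on simulated data with changes larger than those of the 10 genes, which does not show how it performs at their size.

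Named were all members with every probe set, up to 4 genes of each related list by smallest p among those above the controls on at least 2 arrays, and the 3 patterns nearest to Myc. The members, lists and rule were chosen with earlier results of these data known. Current symbols came from a mouse gene table (GRCm38.p6) by gene ID, which matched 10817 of 10833 single-symbol probe sets. Alternatives were other pseudocounts, normalizations, a filter on dim probe sets, a replicate block, leaving out arrays, and averaging probe sets.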

Additional observations from a re-analysis of the deposited data

How the results depend on the processing

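By limma, 0 of the probe sets of the 10 genes passed at an adjusted p under 0.05 in any of the 10 alternative fits, and the lowest adjusted p was 0.576. All 14 were fitted in each but the filter on dim probe sets, which kept 11. The count at an unadjusted p under 0.05 was 0 as reported, 2 with a pseudocount of 64, 1 with quantile normalization and 0 to 3 without single arrays. Over the whole table the count was 233 as reported, 121 after the filter on dim probe sets, and 121 to 1031 without single arrays, where a lone array was assumed to vary like the others. The filter tests fewer probe sets. The cause of the other shifts was not tested.

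The replicate block and the filter cannot move a difference. In the other 8 settings 102 of 112 recomputed differences kept their sign. It was kept in all 8 by 9 of the 14 probe sets, namely those of Myc, Klf4, Klf10, Ier2, Ier3 and Gadd45b. Except for Ier3, the groups of these probe sets did not overlap. Other pseudocounts and left-out arrays therefore could not change their sign. Without single arrays the differences ranged from -0.00536 to 0.382 for Egr1, -0.495 to 0.451 for its second probe set, -0.52 to 0.697 for Egr2, -0.326 to 0.273 for Zfp36 and -0.258 to 0.416 for Dusp1. With a pseudocount of 1 the second Egr1 probe set was at 0.105. The number of genes higher with Men1 was 5 to 7 without single arrays and 7 with each gene averaged over its probe sets (median 0.09).

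Both groups hold replicates 1 and 2. The difference between replicates 1 and 2 in one group correlated with that in the other at 0.295 across 8251 genes, which are not independent, but with 2 pairs this does not show that the numbers pair the arrays. The replicate block left 0 probe sets passing and 297 at an unadjusted p under 0.05.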
